A study of Danio rerio with 6 samples.

Results

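The genes described are 31 zebrafish genes of DNA repair and of the DNA damage checkpoint, taken by name from the count table. Of the 32105 genes in that table all 31 were found, 30 by symbol and mre11a by the orthologue symbol MRE11. The genes fall into homologous recombination (10 genes), the Fanconi pathway (7), checkpoint kinases (4), end joining and strand break repair (5), mismatch repair (2), and excision repair with lesion bypass (3). RNA-seq libraries were made from blood stem and progenitor cells isolated as cd41-positive from embryos, 40 hours after fertilization. The labels of all 6 libraries name cd41gfp. A group of 3 libraries came from ddx41 mutants and a group of 3 from wildtypes; DDX41 is a DEAD-box RNA helicase, and cd41 is the integrin gene itga2b. Both groups were isolated in the same way, and the mutant allele and the number of embryos per library are not given in the sources used here.

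Cells mend DNA by several routes. Homologous recombination copies an intact sister strand and acts mainly in S phase and G2, end joining ligates broken ends directly, and the Fanconi pathway frees strands that are crosslinked to each other. Mismatch and excision repair replace wrong or damaged bases, while checkpoint kinases sense breaks or stretches of single-stranded DNA and halt the cell cycle. Inherited loss of Fanconi genes in humans leads to bone marrow failure, so these routes are of interest in blood progenitors.

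Total counts were 14577735 to 15912260 in mutant libraries and 17001423 to 17639699 in wildtype libraries. Of 79 entries in the marker lists 66 were matched to a gene, so these lists are not complete. Erythroid genes summed to 4841 to 16550 CPM, counts scaled to a common library size, in mutants and 277 to 2451 CPM in wildtypes. By edgeR 7 of 9 tested rose, where 3.34% of all genes tested were higher and 1.99% lower. Myeloid genes summed to 8156 to 11390 CPM and 14460 to 28970 CPM, every mutant library lay below every wildtype library in all 7 tested, and 1, lcp1, fell by the test. Thrombocyte genes summed to 170.4 to 564 CPM in mutants and 47.0 to 108 CPM in wildtypes, and 5 of 7 rose. In 1 of the 7, which did not pass, every mutant library lay below every wildtype library (log2 fold change -2.68). Of 8 stem and progenitor genes 1, tal1, rose and the median log2 fold change was -0.51 (sums of 214 to 345 and 162 to 305 CPM). Their estimates ranged from -2.03 to 2.58. Every mutant library lay above every wildtype library in 1 of the 8 and below in 1, against 15.3% and 13.4% of all genes tested. Of genes from other tissues, 3 of 4 lens genes were tested and all 3 rose (5.88 to 36.2 CPM summed over the 4, against 0 to 0.103 CPM). With so little in wildtypes they passed the filter on low counts only through the mutants, so they could not have been called lower. The 1 tested neuron gene, elavl3, fell (21.9 to 24.8 against 54.2 to 186 CPM). Of 4 endothelial genes 0 passed by edgeR, with 1 at an unadjusted p below 0.05. Mitochondrial genes held 26.5 to 30.7% of counts in mutants and 21.3 to 27.6% in wildtypes. The cd41 gene itself was low, at 2.62, 4.33 and 6.44 CPM in mutants and 3.22, 1.18 and 1.60 CPM in wildtypes, and the level of ddx41 was not analysed here. Mutant replicate 1 and wildtype replicate 1 stood apart from the other libraries of their groups. Among tested repair and checkpoint genes, the lowest mutant value lay in replicate 1 for 19 of 29, or 65.5%, against 40.2% of all genes tested. The lowest wildtype value lay in replicate 1 for 22 of 29, or 75.9%, against 38.5%. In bulk RNA, fewer cells of a type and less RNA per cell cannot be told apart.

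In wildtype cells the members spanned a wide range of levels. Per kilobase of exon, parp1, encoding an early sensor of broken strands, was highest at 13.7 ± 5.07 CPM per kilobase (SD, n = 3), followed by nbn at 11.9 ± 2.77. These values overlapped within their spread. A middle group held rad50 at 7.04 ± 2.94, the Ku genes xrcc6 at 6.98 ± 4.68 and xrcc5 at 6.66 ± 0.70, and chek1 at 6.08 ± 3.55 CPM per kilobase, whose order could not be told apart. The lowest of the members with counts were fancc, palb2, fancb, fancm and fancl, from 0.893 down to 0.635 CPM per kilobase. The members whose wildtype libraries were closest together were ddb2, polk and xrcc5, with coefficients of variation of 5.32%, 10.2% and 10.5%, where the median member had 42.7% in wildtypes and 32.8% in mutants. Apart from fanca, the members lie on 16 chromosomes.

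To determine whether ddx41 mutant cells differ from wildtype cells in these transcripts, all 18722 genes with enough counts were tested together, and 29 of the 31 were among them. None of the 29 passed in either direction (edgeR quasi-likelihood test, adjusted p from 0.0759 to 0.968), where 3.34% of all genes tested were higher and 1.99% lower. The estimates leaned upward: 19 of 29 were positive, or 65.5%, against 51.0% of all genes, with a median log2 fold change of 0.43 against 0.02. At an unadjusted p below 0.05, 8 were higher and 0 lower, where 11.9% of all genes were higher and 10.9% lower. These 8 were rad54l, brip1, palb2, blm, atr, xrcc5, pms2 and polk. In 7 of the 29, or 24.1%, every mutant library exceeded every wildtype library, against 15.3% of all genes. In 0 of 29 every mutant library lay below every wildtype library, against 13.4%. Wildtype replicate 1 was the lowest wildtype library in 22 of the 29, which bears on the count of genes lying below. That count was not taken again without this library. The median log2 fold change was 0.26 without wildtype replicate 1 and 0.53 without mutant replicate 1.

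Other tools called a few. DESeq2 called palb2, atr, pms2 and polk higher (4 of 29, where it called 7.39% of genes higher), and limma voom with sample weights called these and blm and xrcc5 (6 of 29, background 7.8%). Without mutant replicate 1 the edgeR test called brip1, xrcc5, pms2 and polk (4 of 29, background 5.68%). Without wildtype replicate 1 it called 0 members higher, as it did with all 6 libraries. Over all genes tested that fit called 425 higher, against 625 with all libraries, and its share is not given here. No fit called a member lower, where DESeq2 called 6.65% of genes lower, limma voom 7.22% and edgeR without mutant replicate 1 4.16%. The data do not show that the 29 genes were alike in both genotypes: the 95% interval of the fold change reached 2-fold higher in 22 genes and 2-fold lower in 12. In 0 of 29 genes did the interval lie within a 2-fold change in both directions.

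**Figure D1:**
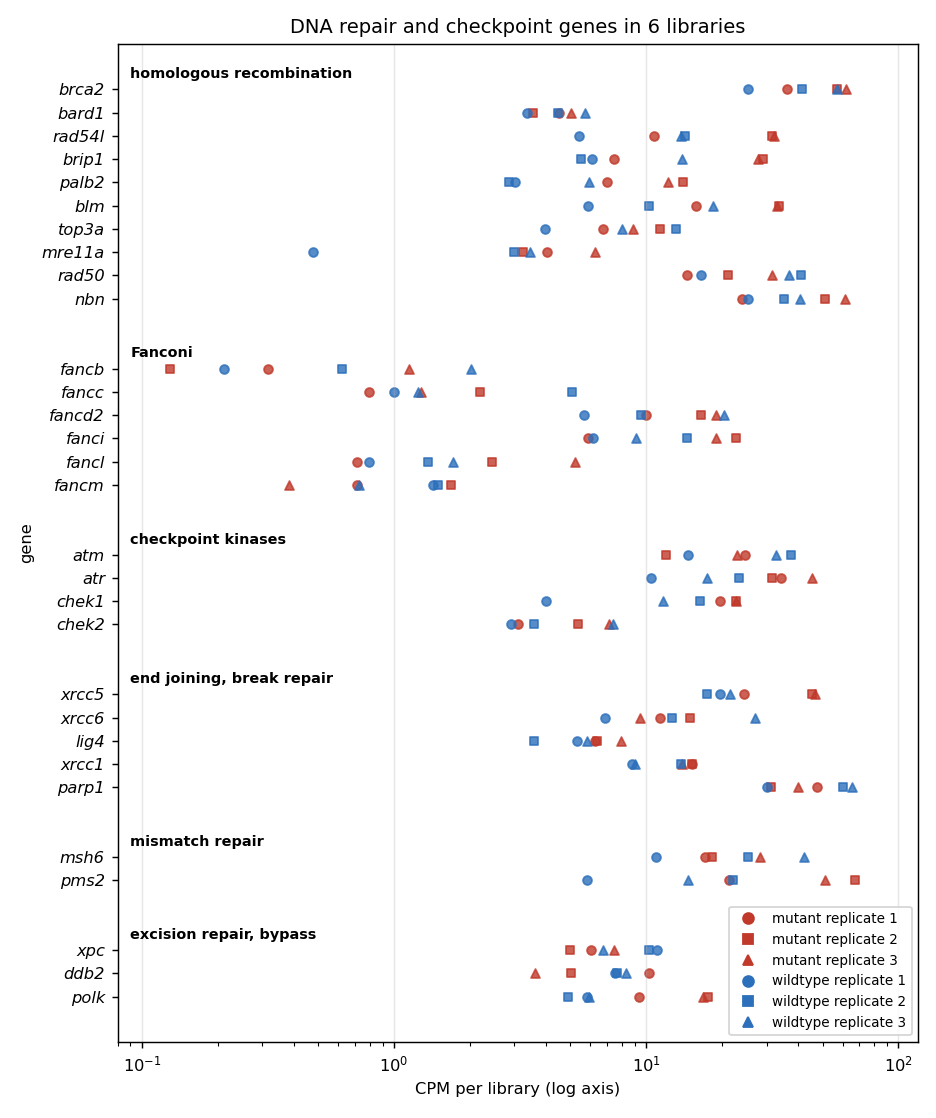
CPM of each gene in each library on a log axis, grouped by pathway, with mutant libraries in red and wildtype libraries in blue; symbols mark the replicate number. The circles of replicate 1 often lie left of the other libraries of their genotype, and fanca, with no counts, is not drawn. For palb2, atr, chek1, xrcc5, lig4, xrcc1 and polk all red points lie right of all blue points.

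**Figure D2:**
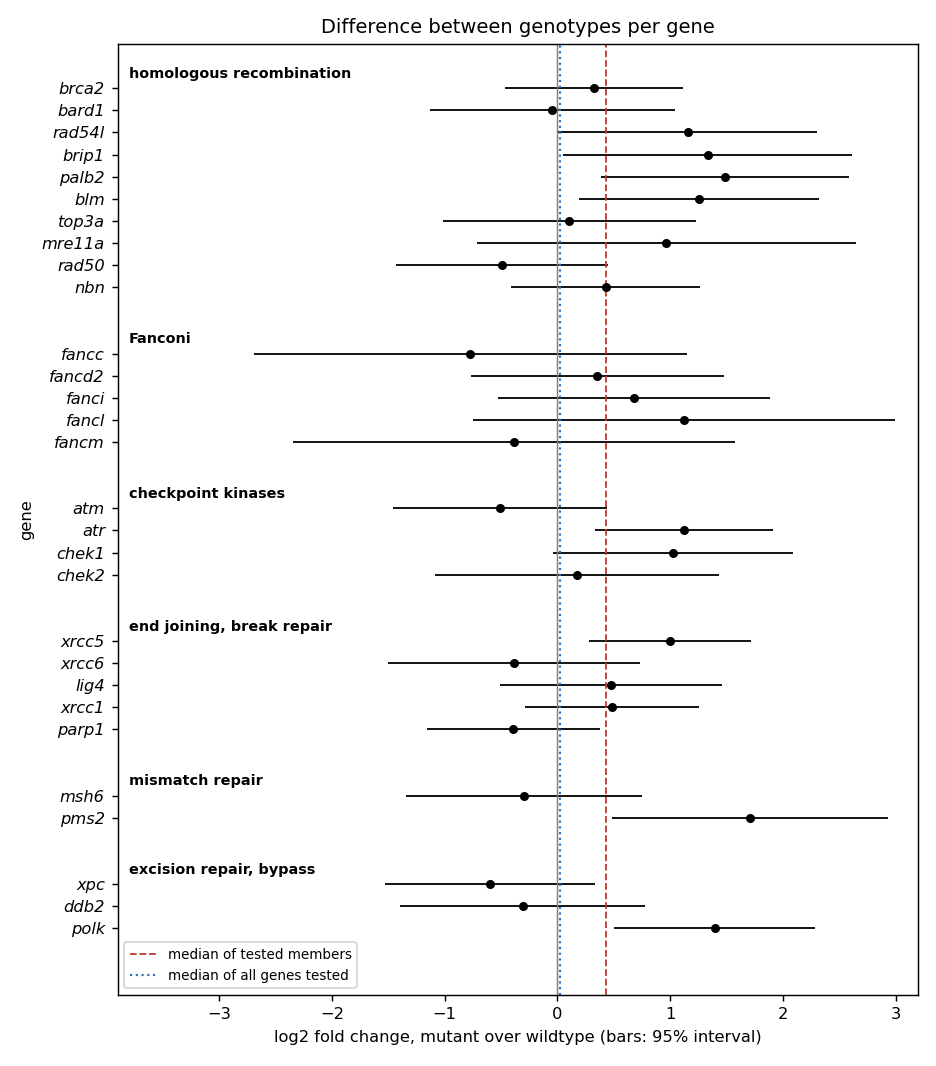
Log2 fold change of the 29 tested genes, mutant over wildtype, with 95% intervals as bars; the dashed line is the median of these genes and the dotted line that of all genes tested. The intervals of 8 genes lie above 0 before adjustment and those of the other 21 include 0.

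Of the 10 homologous recombination genes 8 had positive estimates, with a median log2 fold change of 0.70. At an unadjusted p below 0.05 (edgeR) 4 were higher, where 11.9% of all genes tested were higher. In 1 of the 10, palb2, every mutant library exceeded every wildtype library, against 15.3% of all genes. The gene palb2 (ENSDARG00000076716, chromosome 1, 8440888 to 8450167, GRCz10) encodes the protein that brings BRCA2 to breaks. It stood at 6.99, 14.0 and 12.2 CPM in mutants and 3.01, 2.86 and 5.95 CPM in wildtypes. The lowest mutant library thus exceeded the highest wildtype library, and the log2 fold change was 1.48 ± 0.49 (SE; edgeR adjusted p = 0.112). The RecQ helicase gene blm (ENSDARG00000077089, chromosome 18, 26444699 to 26469298) stood at 15.8, 33.7 and 32.9 CPM in mutants and 5.86, 10.2 and 18.4 CPM in wildtypes. Mutant replicate 1 lay below wildtype replicate 3, so the groups overlapped (1.26 ± 0.47, adjusted p = 0.155). Its topoisomerase partner top3a had a log2 fold change of 0.10.

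The helicase gene brip1 and the strand exchange translocase gene rad54l differed mainly in mutant replicates 2 and 3. Counts of brip1 came to 7.46, 29.1 and 27.6 CPM in mutants and 6.07, 5.52 and 13.9 CPM in wildtypes (log2 fold change 1.33 ± 0.57 SE, edgeR adjusted p = 0.203). The values of rad54l were 10.7, 31.5 and 32.0 CPM against 5.39, 14.3 and 13.8 CPM (1.15 ± 0.51, adjusted p = 0.219). In both genes mutant replicate 1 fell within the wildtype range. For brca2, which loads the strand exchange protein, the log2 fold change was 0.32 ± 0.35, and for bard1, the RING partner of an E3 ligase in recombination, -0.05 ± 0.48. The break sensor complex was mixed, at 0.97 for the nuclease gene mre11a, 0.43 for the adaptor gene nbn and -0.49 for the ATPase gene rad50. Its gene mre11a was scarce, from 0.475 CPM in wildtype replicate 1 to 6.25 CPM in mutant replicate 3, and its log2 fold change was 0.48 without wildtype replicate 1.

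The Fanconi genes summed to 18.4, 45.6 and 45.9 CPM in mutants and 15.2, 32.5 and 35.2 CPM in wildtypes. Their 5 tested members ranged from -0.77 to 1.12 on the log2 scale, 0 had an unadjusted p below 0.05, and the smallest adjusted p was 0.470 (edgeR). The gene fancl (ENSDARG00000007885, chromosome 13, 26573447 to 26650347), whose product is the ubiquitin ligase of the pathway, stood at 0.714, 2.46 and 5.23 CPM in mutants and 0.792, 1.36 and 1.71 CPM in wildtypes. Its groups overlapped (1.12 ± 0.83 SE), and without mutant replicate 3 its log2 fold change was 0.31. Of its exon bases 33.8% of its exon bases are shared with VRK2 on the other strand, so its count is uncertain. The gene fanci (ENSDARG00000026224, chromosome 25, 8370497 to 8402103) stood at 5.87, 22.7 and 18.9 CPM in mutants and 6.12, 14.5 and 9.10 CPM in wildtypes, again with overlap (0.68 ± 0.53), and its log2 fold change was 0.33 without mutant replicate 2. Of its exon bases 12.8% are shared with POLG. Its partner fancd2, ubiquitinated together with it, was at 0.35, the core complex gene fancc at -0.77 and the translocase gene fancm at -0.38.

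The remaining Fanconi members could not be compared. The core complex gene fancb had 2 to 39 counts per library and did not pass the filter on low counts. The core complex gene fanca had 0 counts in all 6 libraries, but its model lies on an unplaced scaffold. On those scaffolds 0 of 565 gene models held a count in any library, so the 0 of fanca is not a measured absence.

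Among the checkpoint kinases, atr and chek1 stood higher in every mutant library than in any wildtype library, as did 15.3% of all genes tested. The genes atm and chek2 did not. None of the 4 passed, and the difference between these kinases was not tested. The kinase gene atr (ENSDARG00000079625, chromosome 2, 16715406 to 16780917) responds to single-stranded DNA at stalled forks. It stood at 34.3, 31.5 and 45.5 CPM in mutants and 10.4, 23.3 and 17.5 CPM in wildtypes. The log2 fold change was 1.12 ± 0.35 (SE; edgeR adjusted p = 0.0988). Its effector kinase gene chek1 (ENSDARG00000104765, chromosome 21, 22521549 to 22528565) stood at 19.6, 22.7 and 22.7 CPM in mutants and 4.01, 16.4 and 11.7 CPM in wildtypes. The mutants were close to one another and wildtype replicate 1 lay well below the other libraries (1.02 ± 0.47, adjusted p = 0.238). Without that library the log2 fold change of chek1 was 0.63. The break-responsive kinase gene atm stood at 24.6, 12.0 and 23.0 CPM against 14.6, 37.4 and 32.8 CPM (-0.51 ± 0.42), and its effector gene chek2 was at 0.17 ± 0.56.

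In end joining, the Ku subunit genes had estimates of opposite sign. The gene xrcc5 (ENSDARG00000099298, chromosome 9, 53018679 to 53058160), encoding Ku80, stood at 24.4, 45.4 and 46.8 CPM in mutants and 19.6, 17.4 and 21.5 CPM in wildtypes. The groups did not overlap, the wildtypes were tightly grouped, and the log2 fold change was 0.996 ± 0.318 (SE; edgeR adjusted p = 0.104). Its partner xrcc6, encoding Ku70, stood at 11.4, 14.9 and 9.44 CPM against 6.86, 12.7 and 27.1 CPM (-0.39 ± 0.50). Without wildtype replicate 3 its log2 fold change was 0.28. The ligase gene lig4 was at 0.48 ± 0.44.

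Single-strand break genes showed small estimates. The scaffold gene xrcc1 (ENSDARG00000009494, chromosome 16, 54351049 to 54387738) stood at 15.2, 15.1 and 13.8 CPM in mutants and 8.77, 13.8 and 8.999 CPM in wildtypes. The groups barely separated, with mutant replicate 3 and wildtype replicate 2 nearly level (0.48 ± 0.34 SE, edgeR adjusted p = 0.445). The sensor gene parp1 stood at 47.7, 31.3 and 40.0 CPM in mutants and 29.99, 60.5 and 65.7 CPM in wildtypes, with overlap through wildtype replicate 1 (-0.39 ± 0.34).

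Mismatch repair held the largest estimate. The gene pms2 (ENSDARG00000075672, chromosome 12, 17481654 to 17497650), encoding a subunit of the nicking complex, stood at 21.3, 67.0 and 51.0 CPM in mutants and 5.81, 22.2 and 14.7 CPM in wildtypes. Mutant replicate 1 lay just under wildtype replicate 2, and the other mutant libraries lay well above (1.71 ± 0.54 SE, edgeR adjusted p = 0.103). The mismatch sensor gene msh6 (ENSDARG00000104541, chromosome 13, 48067437 to 48090025) stood at 17.1, 18.3 and 28.2 CPM in mutants and 10.9, 25.3 and 42.2 CPM in wildtypes. Its groups overlapped widely (-0.30 ± 0.46, adjusted p = 0.753), and without wildtype replicate 3 its log2 fold change was 0.23.

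Lesion bypass gave the smallest p of all members. The gene polk (ENSDARG00000059963, chromosome 5, 45295280 to 45314718), encoding the bypass polymerase kappa, stood at 9.37, 17.6 and 16.8 CPM in mutants and 5.81, 4.90 and 5.95 CPM in wildtypes. Every mutant library exceeded the narrow wildtype range, and the log2 fold change was 1.39 ± 0.39 (SE; edgeR adjusted p = 0.0759), a fold change of 2.63 with a 95% interval of 1.42 to 4.87. The lesion sensors of nucleotide excision repair had negative estimates. The gene xpc (ENSDARG00000039754, chromosome 8, 25988851 to 26011811) stood at 6.03, 4.98 and 7.46 CPM against 11.0, 10.2 and 6.72 CPM (-0.60 ± 0.41, adjusted p = 0.435), with overlap through wildtype replicate 3. Its fellow sensor gene ddb2 stood at 10.2, 5.04 and 3.63 CPM in mutants and 7.498, 7.63 and 8.27 CPM in wildtypes. Mutant replicate 1 was the highest library of ddb2 and the other mutant libraries were the lowest (-0.31 ± 0.48, and -0.86 without mutant replicate 1).

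Mutant replicates 2 and 3 both lay above every wildtype library in 14 of 29 genes, against 24.7% of all genes tested, and both below in 1 (ddb2), against 23.9%. Of all pairs of libraries these were the most alike (chi-square per degree of freedom of 19.3 between their counts). The summed level of all 31 genes was 399.9, 599 and 649 CPM in mutants and 254, 463 and 515 CPM in wildtypes, and these ranges overlapped. The mutant mean was 1.34 times the wildtype mean, 1.52 times without mutant replicate 1 and 1.12 times without wildtype replicate 1. S phase markers, genes of DNA replication, differed in the same direction. Of 13 tested, ccne2 and tyms rose, 12 were positive and the median log2 fold change was 0.88. Their summed level was 749.5, 1156 and 1230 CPM in mutants and 310.4, 662 and 674 CPM in wildtypes, without overlap. Within each library the repair and checkpoint sum was 0.534, 0.518 and 0.528 of the S phase sum in mutants and 0.818, 0.699 and 0.764 in wildtypes. This ratio was lower in every mutant library than in any wildtype library and varied little among the mutants. With ccne2 and tyms left out of the S phase sum it was 0.667, 0.742 and 0.713 in mutants and 0.951, 0.792 and 0.884 in wildtypes, still without overlap. Markers of G2 and mitosis summed to 1217, 2509 and 2318 CPM in mutants and 1334, 2030 and 2156 CPM in wildtypes. Of 12 tested, 10 were positive with a median log2 fold change of 0.56. By edgeR 0 of 12 passed, with 3 at an unadjusted p below 0.05. A single gene of this list held up to 21469 counts in a library, so the sum can differ from the estimates per gene. Mutant replicates 2 and 3 both lay above every wildtype library in 12 of 13 S phase markers and in 10 of these 12. Over the G2 and mitosis sum the ratio was 0.329, 0.239 and 0.280 in mutants and 0.190, 0.228 and 0.239 in wildtypes. The groups overlapped, as mutant replicate 2 (0.2386) lay just below wildtype replicate 3 (0.2389). The lower ratio in mutants thus depended on the marker list. The part of the S phase, erythroid, thrombocyte, myeloid, lens, neuron and mitochondrial differences in these values was not tested.

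**Figure D3:**
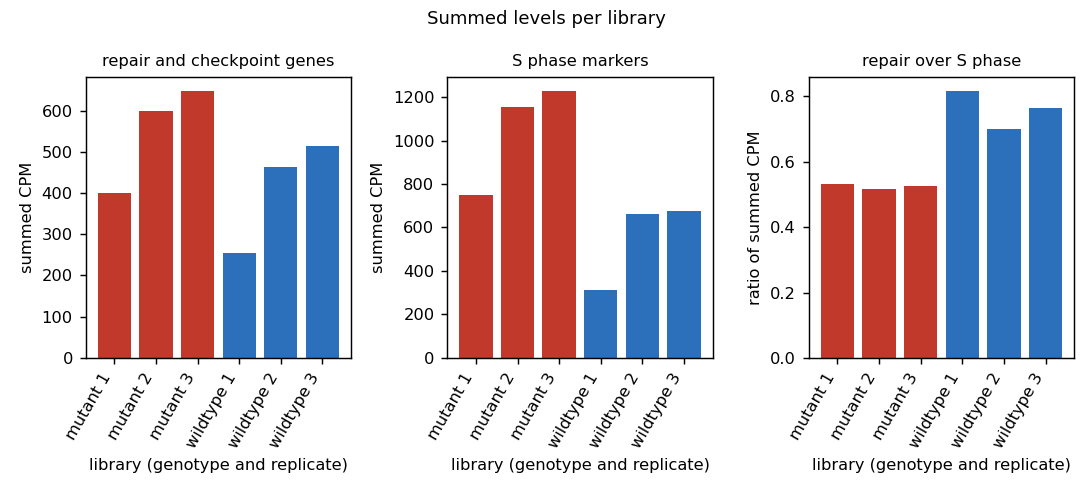
Summed CPM of the 31 repair and checkpoint genes (left), of the S phase markers (middle) and the ratio of these sums (right) in each library, with mutants in red and wildtypes in blue. The ratio lies between 0.518 and 0.534 in mutants and between 0.699 and 0.818 in wildtypes.

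Ratios of partner genes within a library do not depend on how libraries are scaled to each other. For 9 pairs, chosen with the values known and with the gene of the higher estimate mostly put first, levels per kilobase were divided within each library. In 5 pairs the ratio was higher in every mutant library than in any wildtype library, and in 4 the groups overlapped. Over all 406 pairs that can be formed from the 29 tested genes, the groups did not overlap in 25.4%, in either direction. Since the 9 pairs were picked with their values known, the ratios are a description and were not tested. The ratio of atr to atm was 1.61, 3.02 and 2.29 in mutants and 0.822, 0.718 and 0.614 in wildtypes, a 3.13-fold difference of geometric means. In mutants atr thus stood above atm per length in every library, and in wildtypes below it. The ratio of pms2 to msh6 was 1.90, 5.62 and 2.77 against 0.815, 1.35 and 0.534, a 3.70-fold difference. The ratio of palb2 to brca2 was 0.382, 0.487 and 0.390 against 0.236, 0.136 and 0.207, a 2.22-fold difference.

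The pairs blm to top3a and nbn to rad50 also separated, with mean ratios of 2.19 ± 0.50 and 3.17 ± 0.63 in mutants and 1.105 ± 0.550 and 1.84 ± 0.54 in wildtypes (SD, n = 3). The groups overlapped for chek1 to chek2, brip1 to bard1, xrcc5 to xrcc6 and fancd2 to fanci. For fancd2 to fanci the mean ratios were 1.03 ± 0.45 in mutants and 1.15 ± 0.76 in wildtypes.

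**Figure D4:**
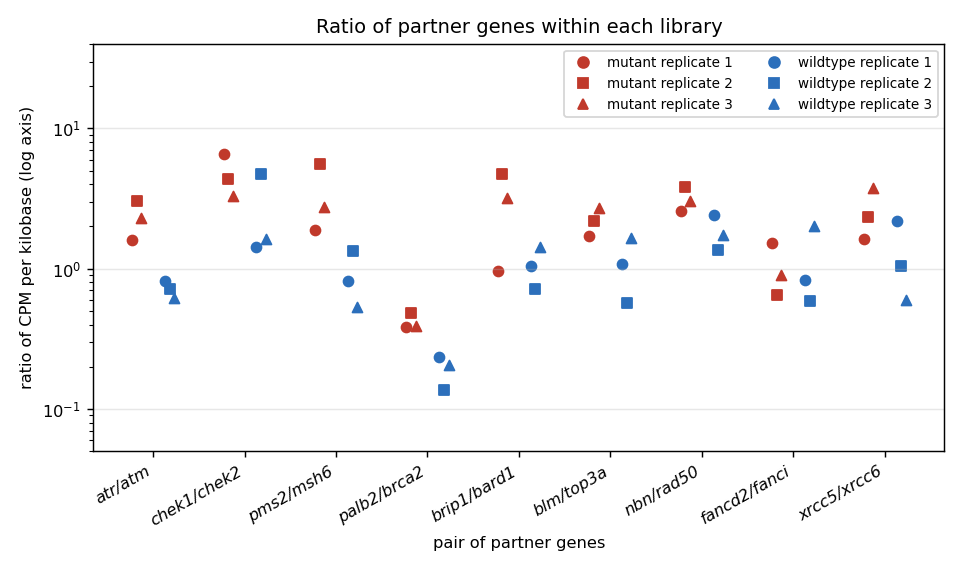
Ratio of CPM per kilobase of exon between partner genes within each library, on a log axis, with mutants in red and wildtypes in blue; symbols mark the replicate number. The groups separate for atr to atm, pms2 to msh6, palb2 to brca2, blm to top3a and nbn to rad50, and overlap for the other 4 pairs.

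The other genes of the same pathways were taken from lists of 123 entries, of which 111 were matched and 109 tested. Of these, 10 rose and 1 fell by the same test, where 3.34% of all genes tested were higher and 1.99% lower, and the median log2 fold change was 0.54. Among 23 recombination genes dna2 rose, which encodes a nuclease of end resection. It stood at 40.8, 47.9 and 46.3 CPM in mutants and 8.71, 11.1 and 13.2 CPM in wildtypes, far apart in every library (2.03 ± 0.28 SE, edgeR adjusted p = 0.00903). It did not pass without wildtype replicate 2 (adjusted p = 0.072). Among 10 Fanconi genes faap24, which encodes a partner of the FANCM protein, rose from 7.08, 6.76 and 12.2 CPM in wildtypes to 25.8, 45.0 and 39.2 CPM in mutants (2.08 ± 0.36, adjusted p = 0.0173).

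Among 16 checkpoint genes 5 rose. The gene mdm2, encoding a ubiquitin ligase, had a log2 fold change of 2.92 ± 0.26 and cdkn1a, encoding a cell cycle inhibitor, 1.52 ± 0.26 (SE; edgeR adjusted p = 0.00225 and 0.0168). The clamp gene rad9a, which acts upstream of ATR signalling, stood at 18.5, 24.2 and 28.5 CPM in mutants and 9.24, 7.82 and 8.48 CPM in wildtypes (1.48 ± 0.32, adjusted p = 0.0308). The mitotic brake kinase gene wee1, named after its values were seen, stood at 143.9, 166 and 161 CPM against 84.0, 85.3 and 72.6 CPM (0.96 ± 0.22, adjusted p = 0.0412). All mutant libraries exceeded all wildtype libraries in these genes.

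Among 15 end joining and break repair genes 1 fell and 1 rose. The gene prkdc, encoding the DNA-dependent protein kinase that binds Ku, stood at 13.4, 16.5 and 15.4 CPM in mutants and 33.4, 67.1 and 77.1 CPM in wildtypes. It was 3.92-fold lower (log2 fold change -1.97 ± 0.35 SE, edgeR adjusted p = 0.0176), the mutants were close together and every one lay below the wildtypes. The gene matched for tdp2b, encoding a phosphodiesterase that removes trapped topoisomerase, was 1.81 ± 0.41 higher on the log2 scale (adjusted p = 0.0380). Among 26 excision repair genes the glycosylase genes mpg and neil3 rose, by 3.44 ± 0.54 and 2.14 ± 0.43 (adjusted p = 0.0131 and 0.0256). No gene of 8 in mismatch repair or of 11 in lesion bypass passed by edgeR. At an unadjusted p below 0.05 there were 2 in mismatch repair and 3 in bypass, where 11.9% of all genes were higher and 10.9% lower. Those in bypass included rev1 (log2 fold change 1.23 ± 0.38, edgeR adjusted p = 0.0951), encoding a bypass polymerase scaffold.

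Among the other pathway genes named here, mdm2 passed in each of the 6 fits with 1 library left out. Leaving out mutant replicate 2, mutant replicate 3 or wildtype replicate 2 each ended the calls of faap24, cdkn1a, rad9a, wee1, prkdc, tdp2b, mpg and neil3 (largest edgeR adjusted p from 0.0771 to 0.175). Leaving out wildtype replicate 3 also ended those of cdkn1a, rad9a, wee1, prkdc, tdp2b and neil3, and leaving out wildtype replicate 1 those of rad9a, wee1, tdp2b and neil3.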

How the data were processed

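The authors counted read pairs with featureCounts 1.5.0-p1 on Ensembl release 85 of GRCz10, per the file headers, with no option for strand, overlapping genes or multiple mapping. STAR 2.4.2a, Trim Galore, Picard, DESeq2 and Cufflinks 2.2.1 are named, without their roles, per the submitters' processing notes. The deposited values are raw counts. Counts of overlapping genes are uncertain; of the members, fancl, fanci, chek2, msh6 and nbn share exon bases with a neighbour.

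All genes were tested with edgeR 4.0.16 in R 4.3.3: TMM scaling, filterByExpr (minimum count 10, total 15), genotype as the sole term, a two-sided quasi-likelihood test, and Benjamini-Hochberg adjustment over 18722 genes with a threshold of 0.05. The SE is the estimate over the root of F. CPM use TMM-scaled library sizes and are listed for replicates 1, 2 and 3 in order; CPM per kilobase use the deposited exon length. Alternatives were RLE size factors, other filters, DESeq2 1.42.0, voom in limma 3.58.1, the replicate number as a block and each library left out. The script was tested on simulated data with known changes, and the share of these that it recovered is not reported here. Every pair of libraries differed beyond counting noise (chi-square per degree of freedom at least 19.3). The labels name no separate clutches, so p-values reflect the spread between libraries, which may be technical.

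The members and lists were chosen with earlier results of these data known. Described in full are the 2 members per pathway with the smallest p. Of each other list up to 4 passing genes are named, or the 1 with the smallest p; genes so named in the checkpoint and mismatch lists are not all reported here. Entries were matched by symbol, or by an orthologue symbol that 1 gene carries. A planned motif search in promoters was not run, since no sequence was used here.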

Additional observations from a re-analysis of the deposited data

How the results depend on the processing

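The count of members higher, 0 in the main test, was 4 with DESeq2, 6 with limma voom and 2 with the replicate number as a block (blm and pms2, where that fit called 4.9% of all genes higher). It was 0 to 4 over the fits that leave out 1 library each, and 0 with RLE size factors or other filters. The count of members lower was 0 in all 12 alternatives. The median over members ranged from 0.18 without mutant replicate 3 to 0.62 without wildtype replicate 3. Over all genes, 625 higher and 373 lower became 1297 and 1168 with DESeq2, 1460 and 1352 with limma voom, and 917 and 653 with the replicate block. With 1 library left out they ranged from 51 to 1135 higher and 11 to 832 lower, the fewest without wildtype replicate 2. Other pathway genes higher, 10, became 21 with DESeq2, 22 with limma voom, 17 with the replicate block and 2 to 20 with 1 library left out; those lower, 1, became 2 with limma voom and 0 to 1. Whether the replicate numbers pair the libraries was not settled, and the labels do not say so. Deviations of same-numbered libraries correlated weakly, at 0.224, 0.155 and 0.0875, but each library correlated best with its own number. The sign of the estimate changed in some alternatives for bard1, top3a, chek2, fancc, xrcc6 and msh6. The 10 members highest per length and per library shared 8 genes. Depth limits fancb, fancc, fancl and fancm most, with at most 82 counts in any library.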

Other observations

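The lists of excision repair, with both nucleotide and base excision genes, and of end joining held further genes whose libraries did not overlap. Those named here were chosen after their values were seen. In the excision list every mutant library exceeded every wildtype library in 11 of 26 tested genes and lay below in 1. In the end joining list this held for 3 and 2 of 15. Over all genes tested the shares were 15.3% higher and 13.4% lower. The endonuclease gene apex1 stood at 51.7, 40.8 and 37.9 CPM in mutants and 60.3, 76.8 and 74.2 CPM in wildtypes, while apex2, encoding a related endonuclease, stood at 8.10, 20.5 and 24.4 CPM against 2.59, 1.92 and 6.83 CPM. Neither passed (log2 fold changes -0.70 and 2.22, edgeR adjusted p = 0.137 and 0.0681). The end joining scaffold gene xrcc4 stood at 3.49, 4.52 and 2.49 CPM in mutants and 8.29, 8.32 and 7.76 CPM in wildtypes, and its partner nhej1 at 6.51, 7.56 and 7.46 CPM against 2.64, 2.67 and 2.85 CPM. These too had estimates of opposite sign and did not pass (-1.21 and 1.40, adjusted p = 0.149 and 0.103).

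The glycosylase gene mpg, the largest increase among the other pathway genes, lies on chromosome 3 at 54776930 to 54788963, in GRCz10, on the same chromosome as the globin genes hbae1.1 (54865728 to 54884490) and hbae3 (54891985 to 54893256). The level of mpg was 8.34, 19.4 and 23.0 CPM in mutants and 1.69, 2.05 and 0.931 CPM in wildtypes. Whether its position bears on its level was not tested.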
